A study of Homo sapiens with 4 samples.

Results

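The baseline of A375, a human melanoma line, was described from the 2 control libraries of a 4-library series, and these controls were then compared with each other. The vector library came from cells stably transfected with the empty pcDNA3 plasmid, the control for MAGE-A1 overexpression. The scramble library came from cells stably transfected with pRNAT-scramble, a hairpin plasmid with a scrambled sequence, the control for MAGE-A1 knockdown. The other 2 libraries carried pcDNA3-MAGE-A1 and pRNAT-shMAGE-A1. All were A375 cells in standard culture with no other agent named, and whether a transfected line was 1 clone or a pool is not stated. The libraries were made from poly(A) RNA and read by Ion Torrent sequencing. With 1 library a group there is no replicate check and no p-value, and every ratio compares 2 libraries, not 2 conditions. Levels are RPKM, reads scaled to transcript length and to library size, so that levels of different genes are compared per length. All 23284 gene symbols in the files entered the baseline. The ratio was taken over the 13326 symbols at 1 RPKM or more in either control. It is log2 of (RPKM + 1) in the scramble library over (RPKM + 1) in the vector library, so that for low genes the true ratio is larger than the one given. "Higher" and "lower" below mean at least 2-fold on that scale.

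Melanomas arise from melanocytes, the pigment cells that the neural crest gives rise to. SOX10, PAX3 and MITF are the transcription factors that set this identity, and MITF activates the genes that make pigment. Melanoma lines differ in how much of the pigment program they keep, and lines that have lost it often carry receptors such as AXL. A375 carries an activating BRAF mutation, which drives the kinases MEK and ERK, and it is widely used to study that pathway. Cancer-testis antigens such as MAGE-A1 are made by germ cells and by many tumours but by few other adult tissues.

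Of all symbols, 13073 (56.1%) had a mean of 1 RPKM or more over both controls and 4492 (19.3%) were listed at 0 in both. Small RNA genes, recognized by their symbols, made up 1618 of them. Among the other 21666 genes, 12707 (58.6%) reached 1 RPKM, 631 lay between 100 and 1000 and 16 stood above 1000. The 100 most abundant held 20.5% of the summed mean RPKM of these genes, and the top 1000 held 52.1%. A listed 0 may also be a failed estimate, since RPL21, a ribosomal protein gene with many near copies, stood at 0.0190 (vector) and 0.0155 RPKM (scramble). Read depth was estimated at 24550000 reads in the vector library and 16350000 in the scramble library, so 1 RPKM on a 2000-base transcript stands for 44.2 and 29.4 reads. The median RPKM of genes other than small RNA was 2.81 and 2.78, and the upper quartile 14.6 and 14.2.

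Sequence before an annotated start is given for the gene of the most abundant message and for a pigment gene listed at 0. GAPDH, the glycolytic enzyme, led all genes other than small RNA at 5880 (vector) and 5667 RPKM (scramble). TYR, the tyrosinase that starts melanin synthesis, was listed at 0 in both. The 250 bases before each start are given 5′ to 3′ from RefSeq (GRCh38.p14), GAPDH at chr12:6535014-6535263 and TYR at chr11:89177625-89177874, both on the plus strand. A gene may have several starts. Which start these cells used was not tested, so a stretch need not be the promoter behind the level. Capitals mark CG pairs and, in TYR, the letters TCATGTG, an E-box form of the kind MITF binds.
GAPDH: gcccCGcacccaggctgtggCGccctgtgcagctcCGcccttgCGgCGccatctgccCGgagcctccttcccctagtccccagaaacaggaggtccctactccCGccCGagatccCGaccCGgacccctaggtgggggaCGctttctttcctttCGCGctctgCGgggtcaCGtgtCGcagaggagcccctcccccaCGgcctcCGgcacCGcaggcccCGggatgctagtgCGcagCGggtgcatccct
TYR: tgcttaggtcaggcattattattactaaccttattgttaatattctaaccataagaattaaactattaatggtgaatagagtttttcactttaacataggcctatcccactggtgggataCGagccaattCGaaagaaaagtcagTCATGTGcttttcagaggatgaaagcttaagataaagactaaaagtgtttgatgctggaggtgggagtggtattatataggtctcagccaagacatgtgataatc

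The GAPDH stretch holds 22 CG pairs and the TYR stretch 2. Across the 13983 genes with a RefSeq promoter of 300 bases (250 before and 50 after the start), levels and base composition went together. Genes listed at 0 in both controls had a median of 4 CG pairs (1866 promoters). The median was 14 from 0.1 to 1 RPKM, 25 from 1 to 10 RPKM, and 27 from 10 to 100 RPKM and at 100 RPKM or more. The letters TATAAA, the core of a TATA box, were found on either strand in 22.7% of promoters at 0 and in 5.31% of those at 1 RPKM or more, against 9.49% of all. CCGGAAGT, letters that ETS factors bind, were in 0.589% and 9.16%, against 6.20% of all. GCATGCGC, letters of the NRF1 site, were in 1.18% and 5.77%, against 4.28% of all. Both of these motifs hold CG pairs themselves, so their shares are tied to the CG count. TCATGTG was in 3.70% of promoters at 0, 1.81% at 1 RPKM or more and 2.30% of all. A match is a run of letters, not a bound site.

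**Figure D1:**
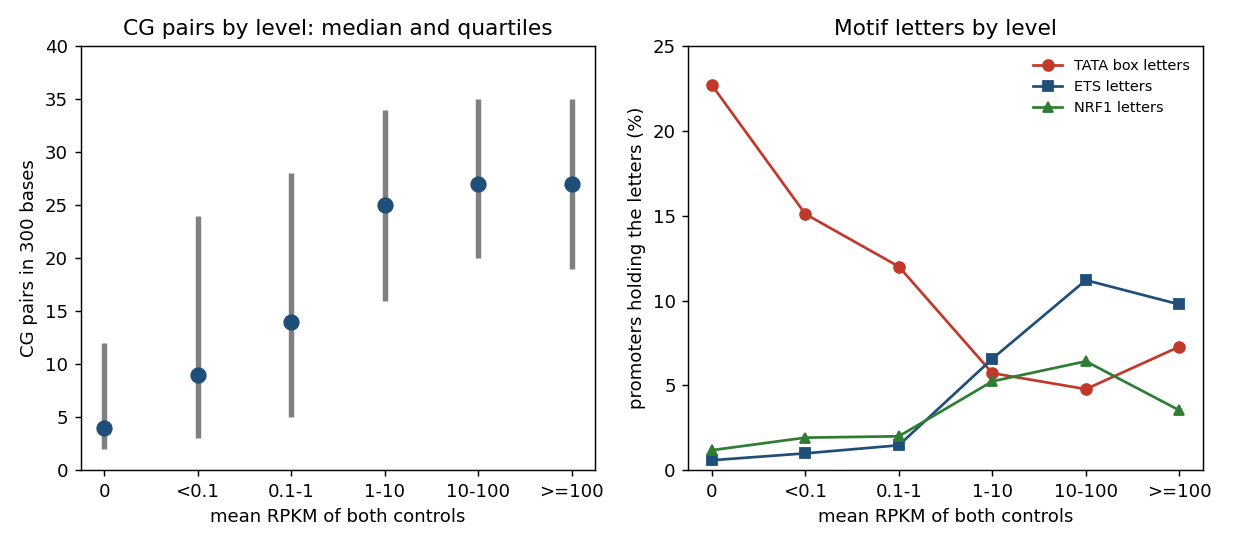
Left, CG pairs in the 300-base promoter by mean RPKM of both controls, with the median (point) and the quartiles (bar). Right, the share of promoters holding the letters searched for the TATA box, ETS factors or NRF1 on either strand. The CG median is 4 for genes at 0 and 27 at 100 RPKM or more, and the TATA share is highest, at 22.7%, for genes at 0.

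The most abundant messages came from genes of translation, glycolysis and the cytoskeleton, with S100A4 and SERPINE2 among them. After GAPDH came RPS6, a protein of the small ribosomal subunit, at 1848 (vector) and 2340 RPKM (scramble). S100A4, a calcium-binding protein of motile cells, was at 2171 and 1373, a log2 ratio of -0.66. SERPINE2, a secreted inhibitor of serine proteases, was at 1452 and 1533. RMRP, a noncoding RNA of the RNase MRP enzyme, was at 1313 and 1669, and VIM, the intermediate filament vimentin, at 1387 and 1437. The cytoskeletal genes ACTG1 (1215 and 1591) and CFL1 (1066 and 1141) were also among the top 15, as were the glycolytic enzyme ENO1 (927 and 1322) and the ribosome scaffold GNB2L1 (1069 and 1123). The other 5 were ribosomal protein genes: RPL11, RPS14, RPS16, RPL38 and RPL8, with means from 1093 to 1377 RPKM. The order of neighbours in this list is not the same in both libraries: S100A4 stands above RPS6 in the vector library and below it in the scramble library. Of 44 cytosolic ribosomal protein genes, 43 were at 1 RPKM or more, with a median of 402 RPKM, and all 73 mitochondrial ribosomal protein genes were, with a median of 38.9. Further S100 proteins were abundant, with S100A6 at 894 and 1022 RPKM, S100A16 at 471 and 585 and S100A11 at 346 and 480.

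Both libraries carried the transcription factors of the pigment lineage while most genes of pigment synthesis lay low and those of the melanosome were mixed. SOX10 was at 281 (vector) and 288 RPKM (scramble). ERBB3, a receptor that SOX10 controls in the neural crest, was at 139 and 142. S100B, a calcium-binding marker of neural crest cells, was at 88.8 and 49.5. These are high levels beside the lineage factors MITF, at 11.4 and 9.75, and PAX3, at 8.30 and 8.69. MC1R, the receptor for the pigment hormone, was at 11.1 and 11.7. GPNMB, a melanosome glycoprotein, was at 58.8 and 45.8, and RAB38, a GTPase of melanosome transport, at 10.5 and 7.79, close to MITF and PAX3. Most genes of pigment synthesis lay far lower. The melanosome matrix protein PMEL was at 0.784 and 0.651 RPKM, the melanoma antigen MLANA at 0.706 and 0.414, and TYRP1, an enzyme next to tyrosinase, at 0.197 and 0.250. TYR and OCA2, a melanosome transporter, were listed at 0 in both, and the receptor KIT was at 0.00816 and 0.0367. DCT, the enzyme dopachrome tautomerase, stood at 3.60 and 8.16. MLPH, which links melanosomes to a motor, was at 1.13 and 4.80, a log2 ratio of 1.45. In all, 18 of 30 genes of pigment cell identity were at 1 RPKM or more. The members that fit the label of a melanoma line included SOX10, ERBB3, S100B, PAX3 and MITF. Of the pigment enzymes, TYR and TYRP1 were at or near 0, while DCT was close to PAX3 in the scramble library.

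Of 28 genes of the neural crest and undifferentiated melanoma, 26 reached 1 RPKM. The hyaluronan receptor CD44 was at 228 (vector) and 214 RPKM (scramble), and MCAM, an adhesion molecule of melanoma, at 176 and 230. TGFBI, a matrix protein induced by TGF-beta, was at 278 and 156, a log2 ratio of -0.83. Receptors of this state were present at lower levels: AXL at 53.8 and 80.6, NGFR at 27.1 and 27.9 and EGFR at 4.74 and 5.45. The ligand WNT5A was at 21.3 and 15.3. SNAI2 and ROR2 were under 1 RPKM in both. None of the 26 was higher or lower by 2-fold. Their ratios ran from -0.83 to 0.58 with a median of 0.05, beside -0.01 over all measured genes other than small RNA. Over those genes 0.594% were higher and 0.347% lower.

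The whole kinase cascade below RAS was measured, together with the genes that ERK activity turns on. All 18 genes of the RAS, RAF, MEK and ERK core were at 1 RPKM or more. BRAF itself was low, at 5.25 (vector) and 4.72 RPKM (scramble), beside ARAF at 29.8 and 37.5. The MEK genes MAP2K1 (29.5 and 29.7) and MAP2K2 (29.5 and 31.1) were close to each other. All 22 ERK output genes were expressed. DUSP6, the phosphatase that switches ERK off, was at 156 and 146, the feedback inhibitor SPRY2 at 102 and 102, the transcription factor ETV4 at 129 and 166 and the cyclin CCND1 at 126 and 125. PHLDA1 (172 and 145) and IER3 (153 and 158), genes of the early ERK response, led the list. The median ratio of the ERK output genes between the controls was 0.03, and 0 of 22 were higher or lower. Over all measured genes other than small RNA, 0.594% were higher and 0.347% lower.

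Among growth control genes, CDK4, the kinase that inactivates the retinoblastoma protein, was at 176 (vector) and 180 RPKM (scramble). CDKN1A, the p53-induced inhibitor of such kinases, was at 145 and 145. CDKN2A, an inhibitor of CDK4 that is often lost in melanoma, was at 0.752 and 1.15, and its neighbour CDKN2B was listed at 0 in both. CCND2, a cyclin, was at 0.0193 and 0. TERT, the catalytic subunit of telomerase, was at 1.21 and 1.60. All 28 S phase genes and all 30 G2 and mitosis genes were at 1 RPKM or more, with medians of 32.6 and 51.0 RPKM. Their leading members were MCM7, of the replicative helicase, at 123 and 158, and CKS2, a cofactor of mitotic kinases, at 126 and 107.

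MAGE-A1, the gene that the other 2 libraries of the series manipulate, was barely expressed at baseline. MAGEA1 was at 1.80 (vector) and 0.767 RPKM (scramble), from an estimated 67 and 19 reads, a ratio of 0.426 with an exact conditional 95% interval of 0.242 to 0.717. Its relatives were far more abundant. MAGEA4 was at 621 and 560 RPKM, MAGEA6 at 121 and 96.4, MAGEA12 at 111 and 102 and MAGEA3 at 107 and 98.9. Near-identical MAGE-A genes share reads, so the split among them is uncertain. Of 27 other cancer-testis antigens in the files, 14 were at 1 RPKM or more, led by PAGE5 at 146 and 159, PRAME, a repressor of retinoic acid receptors, at 139 and 132, and MAGEC2 at 83.1 and 77.0. SSX2, a repressor of transcription, was at 8.64 and 2.17, a log2 ratio of -1.60. These antigens stood apart from true germ cell genes: 0 of 15 germline genes, among them DAZL, DDX4 and PIWIL1, reached 1 RPKM, and 10 of them were listed at 0.

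The cells carried both classes of HLA, with most leukocyte genes near 0. In class I, B2M, the shared light chain, was at 451 (vector) and 442 RPKM (scramble) and HLA-B at 123 and 99.2. All 17 genes of class I presentation were expressed. In class II, CD74, the invariant chain, was at 923 and 764, HLA-DRA at 381 and 239, HLA-DPA1 at 136 and 107 and HLA-DRB1 at 98.7 and 70.1. CIITA, the factor that switches class II genes on, was at 21.4 and 13.1. Class II genes are defining genes of B cells and myeloid cells, but PTPRC, the common leukocyte antigen, was at 0.0436 and 0, MS4A1 at 0.0130 and 0, ITGAM at 0.0446 and 0.0134, and CD3E at 0. Only CD74, HLA-DRA, the lysosomal protein CD68 (27.3 and 32.5) and LYZ, lysozyme (5.40 and 3.06), reached 1 RPKM among the 18 leukocyte genes. The summed level of that list was 1339 RPKM in the vector and 1041 in the scramble library. Of 17 class II chains, 13 were at 1 RPKM or more. The 14 measured had a median log2 ratio of -0.45, and 0 were higher or lower by 2-fold. Over all measured genes other than small RNA, 0.594% were higher and 0.347% lower. CIITA itself had a ratio of -0.67. In bulk RNA, fewer cells with class II messages and less RNA per cell cannot be told apart. LGALS1, a galectin that acts on T cells, was at 373 and 382, and CD276, a checkpoint ligand, at 59.5 and 57.4, while the PD-1 ligand CD274 was at 0.710 and 0.594.

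Of 26 chemokine, cytokine and related inflammatory genes, 15 were at 1 RPKM or more in either control. MIF, a factor that holds macrophages in place, was at 286 (vector) and 309 RPKM (scramble), and the neutrophil chemokines CXCL1 and IL8 were at 47.6 and 63.9 and at 42.5 and 62.5. IL24, of the IL10 family, was at 28.8 and 23.2. CXCL12, CXCL6 and TNF were listed at 0 in both. Between the controls 2 were higher: IL1B, an inflammatory cytokine, at 4.35 and 13.9, and IL11, of the IL6 family, at 6.50 and 14.3. PTGS2, the prostaglandin enzyme COX-2, was lower, at 2.00 and 0.440. These members did not move one way, and the list median was 0.27. All 3 genes of the series title were expressed and each had a ratio above 0: JUN, an AP-1 factor, was at 11.03 and 15.4 (0.45), IL8 had a ratio of 0.54, and ARHGAP29, a GTPase activator, was at 6.84 and 11.9 (0.72).

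N-cadherin and not E-cadherin was expressed. CDH2, N-cadherin, was at 47.9 (vector) and 44.1 RPKM (scramble), while CDH1, the epithelial cadherin, was at 0.0264 and 0. CTNNA1 (190 and 170) and CTNNB1 (163 and 151), the catenins that tie cadherins to actin, were abundant. SPARC, a collagen-binding matrix protein, was at 925 and 936, tenascin TNC at 334 and 307, thrombospondin THBS1 at 269 and 294, and the laminin chain LAMC1 at 220 and 243. The fibrillar collagen genes of fibroblasts were nearly silent, with COL1A2 at 0.117 and 0.0818 and COL3A1 at 0.0690 and 0.0345. MMP2, a gelatinase, was at 174 and 218, and its regulators TIMP1 and TIMP3 at 152 and 164 and at 330 and 441. Integrins were led by ITGA3 (84.8 and 122), ITGA6 (88.5 and 94.1), ITGB3 (78.5 and 82.5) and ITGB5 (75.2 and 82.7), receptors for laminins and for vitronectin.

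HOX genes, which record position along the body axis, were expressed in all 4 clusters. At 1 RPKM or more were 7 of 11 HOXA, 9 of 10 HOXB, 9 of 9 HOXC and 4 of 9 HOXD genes, with HOXB2 (69.4 and 72.6 RPKM in the vector and scramble libraries), HOXB8 (34.8 and 40.7), HOXB7 (23.3 and 26.8) and HOXC10 (24.1 and 24.9) leading. Of the SOX factors 11 of 19 reached 1 RPKM, with SOX5 (72.8 and 55.2) next after SOX10, and of the PAX factors 2 of 9, PAX3 and PAX9. Zinc finger genes named ZNF were widely expressed, at 396 of 485.

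Few genes of several sensory and barrier families reached 1 RPKM. Of 390 olfactory receptor genes, 5 reached 1 RPKM and 304 were listed at 0. Of 24 bitter taste receptor genes, 2 reached 1 RPKM and 7 were listed at 0. Of 88 hair keratin-associated proteins 1 reached 1 RPKM, and of 38 beta-defensins 0. Among markers of other tissues, 0 of 18 liver and muscle genes reached 1 RPKM, with ALB, albumin, at 0.0397 and 0 and MYOD1 and HNF4A at 0. Of 18 keratin and epithelial genes 9 did, led by the simple keratins KRT18 (mean of both controls 306 RPKM) and KRT8 (27.3 and 59.2) and the hair keratin KRT81 (21.3 and 60.6), while TP63, IVL and KRT1, genes of stratified skin, were at 0.0185 and 0, at 0 and at 0. Of 12 endothelial markers 6 reached 1 RPKM, among them ENG at 49.5 and 68.5. A mean under 0.1 RPKM was found for 3, among them PECAM1 (0.0382 and 0.1002) and ERG (0.0361 and 0). Of 16 neuronal and glial genes 7 reached 1 RPKM, among them TUBB3, a neuronal tubulin, at 158 and 162. DCX and ELAVL4 of neurons were among the 3 with a mean under 0.1.

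Setting the controls against each other shows the distance between 2 libraries that hold no MAGE-A1 plasmid. For most genes they were close. Across the 12960 measured genes other than small RNA, Pearson's r of log2(RPKM + 1) was 0.980 and Spearman's rho 0.980, across genes, which are not replicates. Of these, 12180 (94.0%) lay within 1.5-fold, and the 5th and 95th percentiles of the log2 ratio were -0.49 and 0.50. Over all 13326 measured genes, 119 (0.893%) were higher in the scramble library and 238 (1.79%) lower. Small RNA genes made up most of the lower ones, 193 of 238, and 42 of the 119 higher ones. Without them 77 (0.594% of 12960) were higher and 45 (0.347%) lower. Of these 45, 12 were SNAR genes, which are short noncoding RNAs too. Low genes passed more often, at 1.26% of those whose higher value was 1 to 10 RPKM and at 0.701% of those at 100 or more. Plasmid, culture and library preparation differ or may differ together between these libraries and cannot be told apart.

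**Figure D2:**
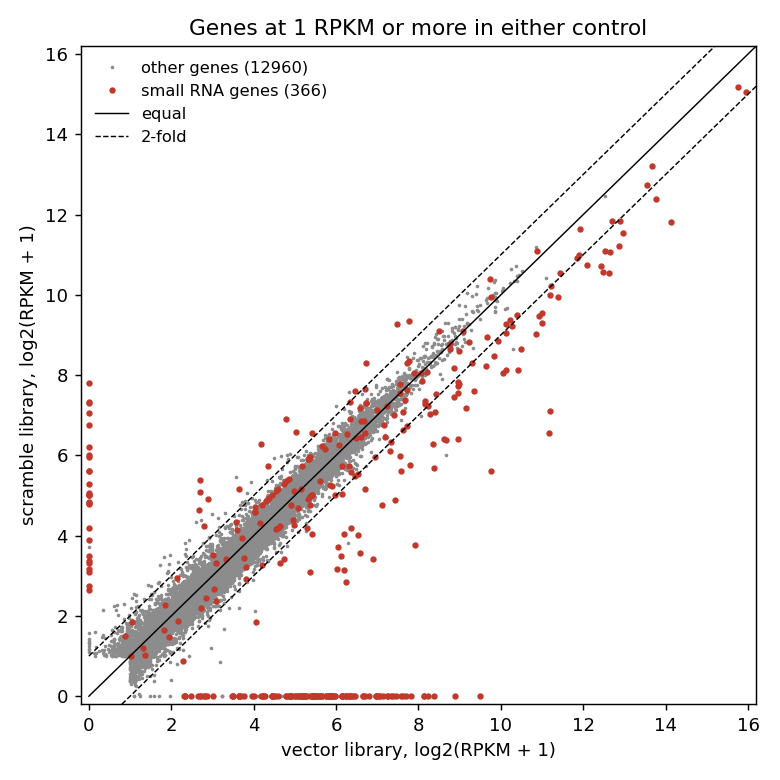
log2(RPKM + 1) in the vector library (x) and the scramble library (y) for genes at 1 RPKM or more in either; red points are the 366 small RNA genes, grey points the 12960 others, the solid line is equality and dashed lines are 2-fold. The grey points keep to the diagonal, while many red points lie below it or on the x axis, at 0 in the scramble library.

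The 77 genes higher in the scramble library included 3 keratins, 2 members of the matrix list and 10 histone genes. KRT81, a hair keratin, was at 21.3 (vector) and 60.6 RPKM (scramble), a log2 ratio of 1.46. KRT8, a simple-epithelium keratin, was at 27.3 and 59.2 (1.09) and KRT7, another, at 2.81 and 7.63 (1.18). Over all measured genes other than small RNA, 0.594% were higher and 0.347% lower. In the keratin and epithelial list 3 of 9 measured members were higher and 0 lower, with a median of 0.70, beside -0.01 over all genes. With no filter the median over all 18 was 0.01, since the 9 members that the filter left out each had a mean under 0.1 RPKM. The measured members' transcripts are rich in GC, with a list median of 56.3% beside 48.3% over all, and with a fitted trend on GC and length removed the list median was 0.54, with KRT81 (1.29) as the 1 member still past 2-fold. Outside that list, C19orf33 was at 10.9 and 43.1 RPKM (1.89), and ITGB4, the integrin subunit of hemidesmosomes, at 24.5 and 62.9 (1.32), the 1 integrin of 19 measured past 2-fold.

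Among secreted and surface proteins, SEMA3F, a guidance factor, was at 5.58 (vector) and 19.9 RPKM (scramble) (1.67), from an estimated 493 and 1173 reads, a ratio of 3.57 (95% interval 3.21 to 3.98). ADAMTS4, a protease that cleaves aggrecan, was at 2.31 and 8.70 (1.55). IL1B, named above, had a read ratio of 3.18 (2.62 to 3.88). In the matrix list, biglycan BGN was at 78.5 and 189 (1.25) and the laminin chain LAMA5 at 27.1 and 63.0 (1.19). They were the 2 higher members of 24 measured, with 0 lower, beside 0.594% and 0.347% over all genes other than small RNA. FN1, fibronectin, lay just outside the threshold in the other direction, at 105 and 52.2 (-0.999). Outside that list, the collagen gene COL5A3 was lower, at 6.57 and 2.73 (-1.02). Further matrix genes outside it were higher, among them ADAMTSL4 (1.24), SMOC1 (1.17), PXDN (1.06) and TINAGL1 (1.03). They were picked from the higher genes, with no count of matrix genes outside the list. With the GC and length trend removed, ADAMTSL4 (1.07) and SMOC1 (1.07) stayed past 2-fold and PXDN (0.95) and TINAGL1 (0.88) did not. TIE1, an endothelial receptor kinase, was at 0.794 and 3.90 (1.45), with PECAM1 and ERG near 0. The 6 measured endothelial markers went both ways, from -0.94 to 1.45, with 4 above 0 and TIE1 the 1 past 2-fold. FOSL2, an AP-1 factor, was at 7.94 and 17.4 (1.04), and the other 12 measured AP-1 factors stayed under 2-fold. Further genes among the 15 highest were PLAC8 (2.55 and 10.1, 1.65), EXOC3L2 (2.83 and 8.75, 1.35), SLAMF9 (1.73 and 5.81, 1.32) and DENND2A (4.15 and 11.8, 1.31). KRTAP22-1 was listed at 0 in the vector library and at 12.1 RPKM in the scramble library, on a transcript of 296 bases.

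Of 61 measured histone genes 10 were higher and 0 lower, beside 0.594% and 0.347% over all measured genes other than small RNA. The histone median was 0.53. Messages of replication-dependent histones end in a stem-loop in place of a poly(A) tail. HIST1H3C was at 5.05 (vector) and 19.2 RPKM (scramble) (1.74), HIST1H2BH at 2.91 and 10.4 (1.54), HIST1H4E at 14.4 and 39.3 (1.39) and HIST2H2AB at 7.75 and 20.6 (1.30). HIST1H4C, the most abundant, went the other way, at 194 and 137 (-0.50). With the GC and length trend removed 6 were higher and 1 lower, with a median of 0.39. Histone copies resemble each other in sequence, which makes each single value uncertain. Another 11 of the 77 were rows joining several symbols or read-through transcripts that overlap other genes, where the split of reads is also uncertain, and 4 of the 45 lower genes were such rows.

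The 45 lower genes included 12 SNAR genes. SNAR-E, of a multicopy family of short noncoding RNAs, was at 1258 (vector) and 403 RPKM (scramble) (-1.64) and SNAR-B2 at 403 and 63.0 (-2.66). SNAR-C3 was at 77.8 and 12.98 (-2.49). SNAR-C4, at 67.1 RPKM in the vector library, was listed at 0 in the scramble library, as were SNAR-A10, SNAR-A3, SNAR-A2, SNAR-D, SNAR-A13, SNAR-C1, SNAR-C2 and SNAR-H, at 8.39 to 24.4 in the vector library. The copies are short and near-identical, which leaves each single value uncertain. No read number was estimated for them, and on so short a gene a few reads give a large RPKM. SNAR-C1, SNAR-C2 and SNAR-H had the same vector value, 8.39 RPKM. The scramble library also had fewer reads (an estimated 16350000 beside 24550000), so a listed 0 may stand for a difference of few reads. Of 15 measured SNAR genes 12 were lower and 0 higher, beside 0.347% and 0.594% of all 12960 measured genes other than small RNA. Most of those genes have longer transcripts. Among the 366 measured small RNA genes, which are short as SNAR genes are, 52.7% were lower and 11.5% higher.

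Few protein-coding genes were lower. C5orf58 was at 8.04 (vector) and 0.791 RPKM (scramble) (-2.33), a ratio from reads of 0.0996 (95% interval 0.0636 to 0.149). TCN1, a vitamin B12 carrier, was at 15.5 and 3.39 (-1.91), a read ratio of 0.220 (0.171 to 0.280). TAC1, the precursor of substance P, was at 6.75 and 1.30 (-1.75), a read ratio of 0.192 (0.117 to 0.300). The sulfate transporter SLC26A2 was the most abundant lower gene other than SNAR genes, at 268 and 126 (-1.08, and -0.90 with the trend removed). MAF, a transcription factor, was at 27.0 and 12.3 (-1.08) and PDK4, a kinase that restrains pyruvate dehydrogenase, at 9.60 and 3.55 (-1.22). Just inside the threshold lay NCALD (-1.003) and KIAA1598 (-1.002) among lower genes and SH2D2A (1.001) and IL11 (1.02) among higher ones, and just outside lay HDDC3 (0.99) and PIGF (-0.99).

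Over all measured genes other than small RNA, 0.594% were higher and 0.347% lower. A short list with no such member lies near that share. The gene lists for central functions were within 2-fold in every measured member. This held for 40 respiratory chain genes (median 0.02), 43 ribosomal protein genes (0.12), 25 core proteasome genes (0.01), 34 genes used by every cell (0.07), 26 p53 targets (-0.09), 26 interferon-induced genes (0.04), 28 S phase genes (0.20) and 30 mitosis genes (0.17). In the last 2 lists most members had ratios above 0, at 23 of 28 and 22 of 30, and with the trend removed their medians were 0.16 and 0.27. AURKB, a mitotic kinase, was at 41.5 (vector) and 64.9 RPKM (scramble) (0.63), and MCM5 at 40.6 and 65.4 (0.68). Heat shock genes (median 0.08) and glycolysis genes (0.19) had no member past 2-fold either, and the lactate exporter SLC16A3, at 12.9 and 26.0 (0.95), came nearest.

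**Figure D3:**
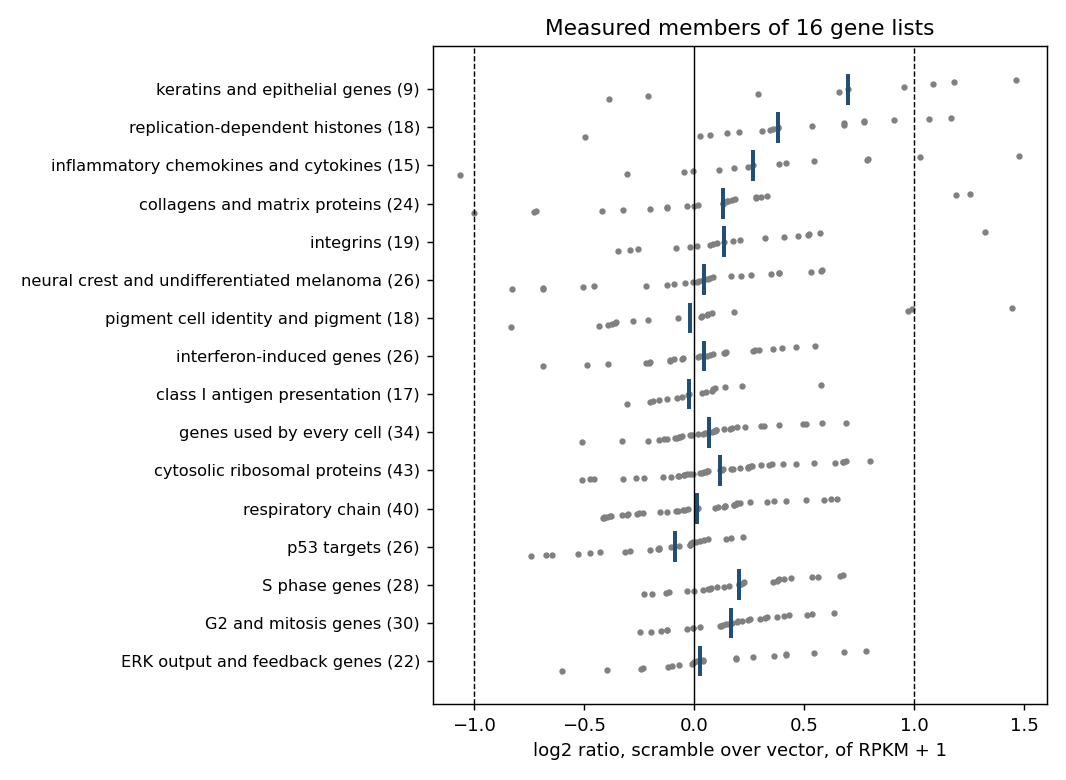
log2 ratio of scramble over vector for the measured members of 16 gene lists (grey points, number in brackets) with each list's median (blue bar); dashed lines are 2-fold. The keratin and epithelial list has the highest median of these 16 under the 1 RPKM filter, 0.70, and points past 2-fold appear in 6 of the 16 lists.

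Small RNA genes differed far more between the controls than other genes did. Of 366 measured, 42 (11.5%) were higher and 193 (52.7%) lower in the scramble library, with a median log2 ratio of -1.21, and 24.3% lay within 1.5-fold. Their share of the summed RPKM was 46.1% (vector) and 29.2% (scramble). A share of summed RPKM is not a share of reads, because a few reads on a very short gene give a large RPKM. C/D box snoRNAs guide methylation of ribosomal RNA, and most are cut from introns of their host genes. They have no poly(A) tail, and these libraries were made from poly(A) RNA. Of 136 measured C/D box genes 87 were lower and 7 higher (median -1.51), and among the 85 with a mean of 100 RPKM or more 48 were lower and 3 higher (median -1.19). Of 77 H/ACA box genes, which guide pseudouridylation, 34 were lower and 9 higher (median -0.73). Of 117 microRNA genes 62 were lower and 24 higher (median -2.21), and 0 was listed for 57 of them in the scramble and for 19 in the vector library. The scramble library had fewer reads, and very short genes with few reads can then be listed at 0. At a mean of 100 RPKM or more, 6 of 17 microRNA genes were lower and 2 higher (median -0.90). At that level 3 of 14 H/ACA box genes were lower and 0 higher (median -0.62). Of 19 Cajal body RNA genes 7 were lower and 0 higher.

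Of the C/D box snoRNAs, 3 are shown as the letters behind the largest small RNA values and a larger difference, SNORD42A as the 1 of highest mean, SNORD32A as another of the most abundant and SNORD18A for its ratio. Sequences are from GENCODE 29 (GRCh38), 5′ to 3′ with T for U, and capitals mark the C box, found as TGATG with its neighbouring base on each side, and the D box, CTGA. SNORD42A is at chr17:28723429-28723492 (plus strand), SNORD32A at chr19:49489965-49490048 (plus) and SNORD18A at chr15:66503243-66503314 (minus).
SNORD42A: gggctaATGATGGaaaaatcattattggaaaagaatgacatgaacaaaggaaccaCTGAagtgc
SNORD32A: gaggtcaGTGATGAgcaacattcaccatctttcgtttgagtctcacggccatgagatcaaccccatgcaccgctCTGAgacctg
SNORD18A: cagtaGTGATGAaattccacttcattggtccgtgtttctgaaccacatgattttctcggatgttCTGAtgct

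SNORD42A, which is 64 bases long and lies within RPL23A, was at 63626 (vector) and 33710 RPKM (scramble), a log2 ratio of -0.92. SNORD32A, within RPL13A, was at 13006 and 9447 (-0.46). SNORD18A, within RPL4, was at 6280 and 1489 (-2.08). The host messages did not share these ratios: RPL23A was at 117 and 105 RPKM (-0.15), RPL13A at 597 and 622 (0.06) and RPL4 at 273 and 325 (0.25). Among the 25 small RNA genes of highest mean, all C/D box genes, SNORD34 (1866 and 2165, 0.21) was the 1 with a ratio above 0. The part of poly(A) selection, fragment size and cell state in these values was not tested.

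GC content of the transcript went with the ratio between the controls. Across the 12426 measured genes other than small RNA with a GENCODE 29 transcript (95.9%), Spearman's rho of the ratio with GC was 0.515 and with length -0.156, across genes. In bins of equal size the median ratio was -0.26 at a median GC of 37.0% and 0.17 at 63.9%. The lowest bin held 0 higher and 3 lower genes, and the highest held 17 and 3. Genes higher in the scramble library had a median GC of 56.9% (67 with a transcript) and the lower ones 46.2% (21), beside 48.3% over all. With the fitted trend removed, 44 of those 67 were still higher and 15 of the 21 still lower. C19orf33 (1.66), SEMA3F (1.49), PLAC8 (1.80), IL1B (1.51), KRT81 (1.29) and ITGB4 (1.14) stayed past 2-fold, and LAMA5 (0.98), FOSL2 (0.96), KRT8 (0.97) and KRT7 (0.998) did not. The spread of GC medians is small beside 2-fold, and its source was not tested.

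**Figure D4:**
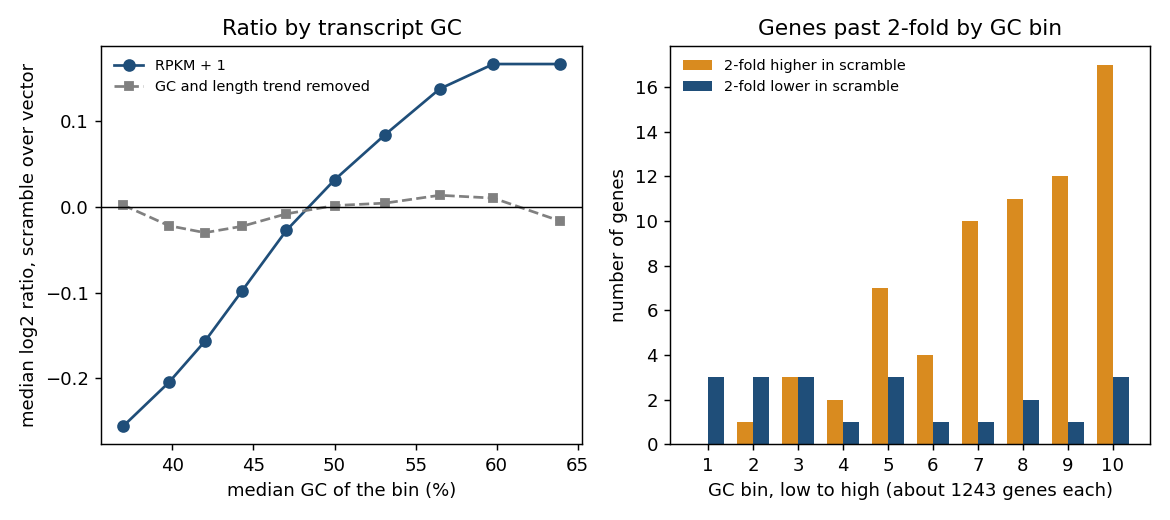
Left, median log2 ratio of scramble over vector in 10 bins of transcript GC, as measured (circles) and with the GC and length trend removed (squares). Right, the number of genes 2-fold higher and lower in the scramble library in each bin, which is 0 and 3 in the lowest and 17 and 3 in the highest.

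The other pair of plasmids gave a comparison that shares no library with the controls, knockdown over overexpression, which also holds the effect of both MAGE-A1 constructs. Of the 12960 genes, 18.0% were higher and 17.9% lower there. Of the 77 genes higher in the scramble library, 12 (15.6%) were higher in the knockdown than in the overexpression library and 31 (40.3%) were lower. Of the 45 lower genes, 9 (20.0%) were higher and 10 (22.2%) lower. The share of the 77 that was lower there stands above the share over all genes, while the 45 stay near it. KRT81 was at 53.9 RPKM in the overexpression and 0.566 in the knockdown library, ITGB4 at 7.93 and 0.954, IL1B at 4.63 and 0.432, and C19orf33 at 33.7 and 0.205. HIST1H3C (47.0 and 106) and HIST2H2AB (22.1 and 57.7) went the same way in both comparisons.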

How the data were processed

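RNA of A375 cells was measured in 4 libraries, 1 per group, and the groups come from the sample titles. The deposited values are RPKM, 1 for each of 23284 symbols, per the file headers, and 91 rows join several symbols. Tools named in the submitters' processing notes, with no role or order, are Cufflinks 2.2.0, SAMtools 1.1, TopHat2 2.0.13 and Bowtie2 2.2.4, and the build is hg19. What annotation, counts or filters the authors used is not given in the sources used here. Labels do not say whether the libraries were prepared together.

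Ratios used a pseudocount of 1 and genes at 1 RPKM or more in either control, and 2-fold (log2 of 1) was the threshold. With 1 library a group, no test was run. Small RNA genes were those whose symbols start with SNOR, MIR, SCARNA, RNU, RNY, RN7 or VTRNA, which takes in 15 microRNA host genes, 10 of them measured. SNAR genes and RMRP count with the others. Low RPKM values of 2299 genes with a single GENCODE 29 transcript fall in steps of 1 read, which gave an estimate of depth. Whole reads, to within 0.1, made up 70.8% (vector) and 63.5% (scramble) of the values used, where 20.0% would by chance. Read numbers of single genes were worked back from RPKM, the estimated depth and the longest GENCODE 29 transcript less 200 bases. Where the reads come from shorter isoforms, these numbers are too high and the intervals too narrow. Intervals are exact conditional (Clopper-Pearson) and cover counting error only. Transcript GC and length came from the longest GENCODE 29 transcript, and the trend was fitted on both. RefSeq promoters were matched by symbol. Coordinates are GRCh38, not the build of the files.

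The 44 gene lists and the members were chosen with earlier results of these data known. Genes were named by a rule: MAGEA1 and the genes of the title, the 15 of highest mean, the 15 highest and 15 lowest ratios at 5 RPKM or more (small RNA and LOC symbols left out), and in each list the 4 of highest mean, those past 2-fold (up to 4) and, for cell identity lists, those under 0.1 RPKM in both. Any other gene named was chosen after its values were seen. Alternatives changed the pseudocount, filter, scaling, GC and length trend, small RNA genes and joined rows. Some single genes are not reported here. Scripts were tested on simulated data. Python 3.11.15, pandas 2.3.3, NumPy 2.4.6, SciPy 1.17.1 and Matplotlib 3.10.9 were used.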

Additional observations from a re-analysis of the deposited data

How the results depend on the processing

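With 1 library a group these are values with no test, and depth limits low genes most. No paired analysis was possible because each group holds 1 library and the labels give no replicate numbers. Genes higher in the scramble library numbered 119, and 240 with a pseudocount of 0.1, 77 with small RNA genes left out and 50 with the GC and length trend removed, which also leaves small RNA genes out. Genes lower numbered 238, and 45 and 22 under the last 2 settings. Under the other settings the counts were 84 to 170 and 217 to 337, within 1.5 times. The number of genes at 1 RPKM or more, 13073, was 9710 to 14125 under its alternatives. No value past 2-fold changed sign. Of values for named genes 272 stayed within 1.5-fold of the main ratio and 21 moved beyond it, all for C5orf58, KRTAP22-1 or SNAR genes under another pseudocount. Of list medians 383 stayed and 3 moved, 1 of keratins (0.01 with no filter) and 2 of liver and muscle markers.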

Other observations

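Other gene groups of the baseline can be read from the same lists. Receptor tyrosine kinases were led by ERBB3, EPHA2 (78.6 RPKM in the vector library, 135 in the scramble library) and AXL, with 21 of 30 at 1 RPKM or more, while RET (0.0205 and 0.0112) and ERBB4 (0.00347 and 0.00520) were near 0. All 20 genes of the YAP and TEAD list reached 1 RPKM, led by the coactivator WWTR1 at 206 and 184. In the BCL2 family 13 of 15 did, with the death effector BAX at 197 and 221 and the survival protein MCL1 at 153 and 148 above BCL2 itself at 2.26 and 1.58. All 22 DNA repair genes did, led by XRCC5, a Ku subunit, at 145 and 145. Of the iron and antioxidant genes 19 of 21 did, with ferritin light chain FTL at 960 and 916, and of the unfolded protein and amino acid stress genes all 25, with the chaperone HSPA5 at 253 and 249.

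Between the controls none of these 6 lists had a member past 2-fold. Their median log2 ratios ran from -0.16 (iron and antioxidant genes) to 0.26 (receptor tyrosine kinases), the latter 0.10 with the GC and length trend removed. The list of receptor tyrosine kinases does not hold the receptor kinase TIE1, which was higher (1.45), as given above. Cholesterol synthesis genes (25 measured, median 0.17), hypoxia-induced genes (19, 0.20), TGF-beta and BMP genes (23, -0.10) and long noncoding RNAs (18, -0.14) had no member past 2-fold either. In the hypoxia list ADM, the vasodilator adrenomedullin, came nearest, at 11.9 and 24.3 RPKM (0.97), and in the TGF-beta list INHBA, an activin subunit, at 32.8 and 60.9 (0.87). Zinc finger genes named ZNF, of which 405 were measured and 0 were past 2-fold, had a median of -0.20. That median was not taken with the GC and length trend removed. Over all measured genes other than small RNA, 0.594% were higher and 0.347% lower.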
